A study of Homo sapiens with 4 samples.

Results

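Transcripts of 10 genes for extracellular matrix proteins, matrix metalloproteinases and their inhibitors were described in 4 human acute myeloid leukemia lines: TIMP1, TIMP2, TIMP3, MMP2, MMP9, CHI3L1, TGFBI, SPARC, VCAN and FN1. They were found by symbol among the 21865 symbols of the deposited tables, and none of the 10 was listed more than once. The genes were selected on their measured RPKM in these same libraries, so their levels are a description and carry no test. The lines were HL60, KG1a, THP-1 and MonoMac-1, each an established culture grown in serum-containing medium and each represented by 1 library, with no replicate. HL60 is a myeloblastic to promyelocytic line and KG1a an immature line, while THP-1 and MonoMac-1 are monocytic and carry the MLL-AF9 fusion; these descriptions are general knowledge and are not given by the labels. The title of the THP-1 sample ends in "tr", which no label explains, so it is not known whether that culture was treated or modified.

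The extracellular matrix is a mesh of secreted proteins and proteoglycans that cells bind, lay down and cleave. Matrix metalloproteinases (MMPs) are zinc-dependent enzymes that cut these proteins, and the tissue inhibitors of metalloproteinases (TIMPs) block them by binding the catalytic site. Monocytes and macrophages are known sources of both, and carry matrix proteins of their own such as the proteoglycan versican and the glycoprotein CHI3L1.

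Levels are the authors' RPKM (reads per kilobase of gene length, scaled to the library total), and the bracketed 95% intervals are exact Poisson limits on fragment equivalents of 200 bases, which cover counting error only. They say nothing of the spread between cultures. Sequenced bases on genes ranged from 6.04 gigabases (THP-1 library) to 13.6 (MonoMac-1 library). A gene is called measured where it reached 1 RPKM in at least 1 line, which 12976 genes and 8 of the 10 members did; MMP9 and FN1 did not. The leukocyte markers PTPRC (CD45; 24.2 to 72.5 RPKM) and LCP1 (280 to 490 RPKM) were present in all 4 lines. Of 10 fibroblast and stromal markers only THY1 reached 1 RPKM (1.31 in HL60), COL1A1 stayed at or under 0.195 RPKM, and the list summed to 0.532 (KG1a) to 1.62 RPKM (HL60). Identity markers did not all follow 1 line each. CD34 was highest in KG1a (494 RPKM), whereas KIT of the same stem and progenitor list was highest in THP-1 (9.06) and lowest in KG1a (0.00634). MPO was highest in HL60 (4610), whereas the other 4 granulocyte precursor markers, ELANE, AZU1, PRTN3 and CTSG, were each higher in THP-1 and MonoMac-1 than in HL60. LYZ was highest in MonoMac-1 (4837).

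Members differed in the lines that held them and in the sequence upstream of their start. Windows of 250 bases upstream were taken from RefSeq (GRCh38.p14, a different build from the hg19 of the deposited tables) by symbol, and 7 members matched: CHI3L1, TGFBI, TIMP1, TIMP3, VCAN, FN1 and SPARC. The 4 below are the 3 members that stood highest in THP-1 by a wide margin and TIMP1, which all lines held. Capitals mark matches to TATAAA (gene strand), and, on either strand, to the GC box GGGCGG, the CCAAT box CCAAT, the AP-1-like motif TGAGTNA and the E-box CACGTG; matches of different motifs may overlap. The windows lie at chr1:203186705-203186954 (minus strand) for CHI3L1, chr5:136028738-136028987 (plus) for TGFBI, chr22:32801455-32801704 (plus) for TIMP3 and chrX:47582186-47582435 (plus) for TIMP1.
CHI3L1: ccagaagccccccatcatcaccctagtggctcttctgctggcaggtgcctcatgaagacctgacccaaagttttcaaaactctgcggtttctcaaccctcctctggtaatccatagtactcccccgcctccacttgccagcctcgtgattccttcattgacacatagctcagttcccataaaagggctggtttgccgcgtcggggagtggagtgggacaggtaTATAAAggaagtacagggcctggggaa
TGFBI: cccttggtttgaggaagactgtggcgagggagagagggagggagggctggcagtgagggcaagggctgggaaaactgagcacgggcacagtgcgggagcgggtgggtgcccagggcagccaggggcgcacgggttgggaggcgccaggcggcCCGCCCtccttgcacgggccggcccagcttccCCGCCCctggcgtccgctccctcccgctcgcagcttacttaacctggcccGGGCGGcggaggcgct
TIMP3: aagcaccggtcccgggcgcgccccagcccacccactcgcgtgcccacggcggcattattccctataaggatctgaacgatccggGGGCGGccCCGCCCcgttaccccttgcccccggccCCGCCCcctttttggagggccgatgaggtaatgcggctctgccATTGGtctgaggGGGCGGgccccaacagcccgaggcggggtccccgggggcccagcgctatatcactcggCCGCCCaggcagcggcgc
TIMP1: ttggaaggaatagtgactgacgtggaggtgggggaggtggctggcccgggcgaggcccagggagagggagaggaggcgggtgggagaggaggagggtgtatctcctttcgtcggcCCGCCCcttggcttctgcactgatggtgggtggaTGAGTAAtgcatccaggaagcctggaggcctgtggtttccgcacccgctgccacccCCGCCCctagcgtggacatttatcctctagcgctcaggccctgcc
The windows of the 3 THP-1 genes differed in base content and in motif matches. The CHI3L1 window had 54% G and C and 6 CpG dinucleotides, and held 1 TATAAA beginning 27 bases before the start, a motif found in 6.80% of the 35114 windows of that length. The TIMP3 window had 72.4% G and C, 26 CpG, 5 matches to GGGCGG (at least 1 in 42.6% of all windows) and 1 to CCAAT (32.01%). The TGFBI window had 72.8% G and C, 20 CpG and 3 matches to GGGCGG. The TIMP1 window held 2 matches to GGGCGG and 1 to TGAGTNA, which 10.8% of all windows hold. CACGTG, present in 6.35% of windows, was found in none of the 7, and SPARC had no match to any of the motifs. The median window had 58% G and C and 11 CpG. A match is a run of letters and does not show that a factor binds there.

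The members did not share one pattern over the lines. CHI3L1, TGFBI and TIMP3 were highest in THP-1 (3 of 10 members; 21.0% of measured genes were highest there), and TIMP2, MMP2, VCAN and MMP9 in MonoMac-1 (4 of 10; 24.9%). TIMP1 and SPARC were highest in KG1a (2 of 10; 31.0%). FN1 had its highest value in HL60 (1 of 10; 23.1%), by a margin within the counting error of the THP-1 value. Levels of at least 1 RPKM were reached by 7 members in THP-1 (87.4% of measured genes) and 7 in MonoMac-1 (86.6%), by 3 in HL60 (81.5%) and by 2 in KG1a (84.3%). All these shares run over measured genes, which leave out MMP9 and FN1, whereas the counts run over all 10 members. Against the 8 measured members, the 7 in THP-1 and in MonoMac-1 are near those shares. The 3 in HL60 and the 2 in KG1a are under them. However, TGFBI, TIMP3, MMP2 and VCAN counted as measured only through THP-1, MonoMac-1 or both. The members were also selected on these values, so nothing is concluded from these counts.

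**Figure D1:**
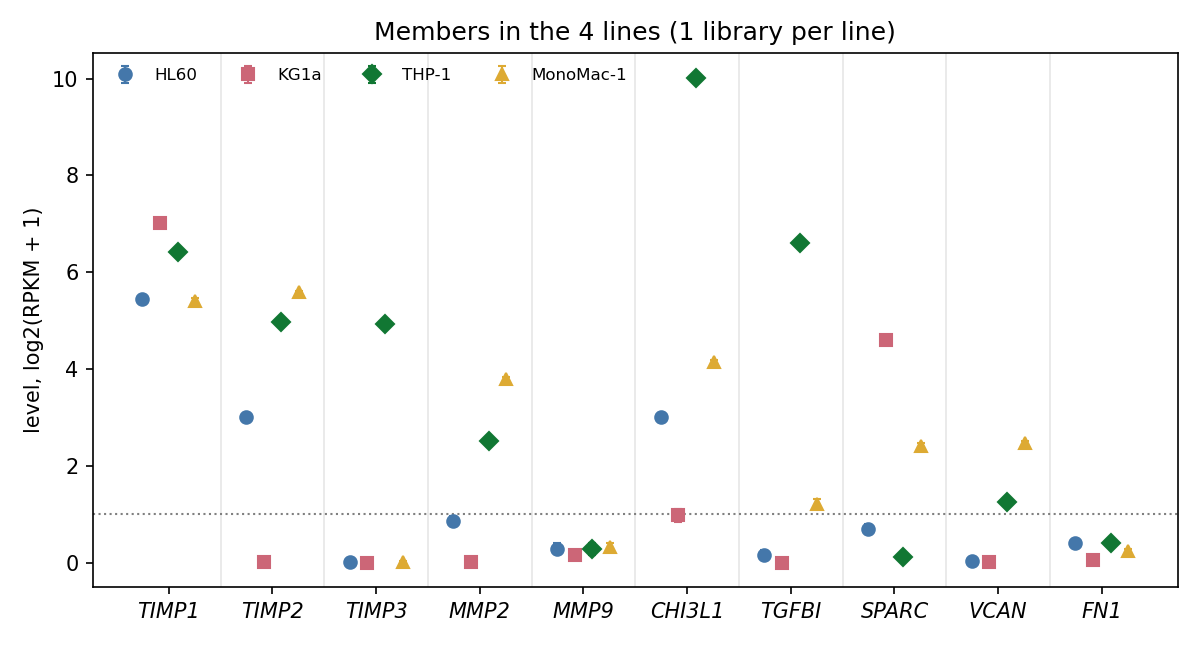
Level of each member as log2(RPKM + 1) in the 4 lines (1 point per library; bars are 95% counting limits, mostly smaller than the points; the dotted line is 1 RPKM). TIMP1 is high in all 4 lines, CHI3L1, TGFBI and TIMP3 stand apart in THP-1, SPARC stands highest in KG1a, and MMP9 and FN1 lie under the dotted line throughout.

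By a rule of at least 8 times the highest of the other 3 lines, computed on RPKM + 1, 3 members were restricted to THP-1, namely CHI3L1, TGFBI and TIMP3, where 0.462% of measured genes met the rule. In HL60, KG1a and MonoMac-1 0 members met it (0.170%, 1.09% and 0.416% of measured genes). The 3 remained when HL60, KG1a or MonoMac-1 was left out, where 0.563%, 0.524% and 1.41% of measured genes were restricted to THP-1. Without THP-1 0 members were restricted to HL60, KG1a or MonoMac-1 (0.308%, 1.34% and 1.28%). When MonoMac-1 was left out SPARC was restricted to KG1a (1.26% of measured genes under that setting). With a 4-fold margin and all lines SPARC also met the rule in KG1a, as did 2.82% of measured genes, and the same 3 members met it in THP-1 (1.13%).

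Among the inhibitors, TIMP1 was the one that every line held. TIMP1 (chromosome X, 47441690 to 47446190, hg19), a secreted inhibitor of most soluble MMPs that also acts on cells as a cytokine-like factor, stood at 128 RPKM in KG1a (125 to 131), 83.95 in THP-1 (80.8 to 87.2), 42.9 in HL60 (40.97 to 44.8) and 41.4 in MonoMac-1 (39.97 to 42.96). KG1a and THP-1 were thus the higher lines, and the counting intervals of HL60 and MonoMac-1 overlapped. The highest level was 3.08 times the lowest, and on the log2(RPKM + 1) scale the difference of 1.60 was larger than that of 68.3% of measured genes. TIMP1 ranked 381 among all genes in KG1a and 1881 in MonoMac-1. It lies inside SYN1, the gene of a synaptic vesicle protein, whose own entry stayed between 0.0106 and 0.154 RPKM.

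TIMP2 (chromosome 17, 76849059 to 76921472), an inhibitor that also takes part in the activation of MMP2, was present in 3 lines and nearly absent from KG1a. It stood at 47.3 RPKM in MonoMac-1 (46.5 to 48.1), 30.3 in THP-1 (29.3 to 31.3) and 7.10 in HL60 (6.72 to 7.50). In KG1a it stood at 0.0135 RPKM (0.00277 to 0.0393), a value that rests on 3 fragment equivalents. The order was MonoMac-1, THP-1, HL60 and KG1a with no overlap of counting intervals, and MonoMac-1 exceeded THP-1 by 1.56 times and HL60 by 6.66 times.

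TIMP3 (chromosome 22, 33196802 to 33259028), the inhibitor that stays bound to the matrix and also blocks several ADAM proteases, was found at a substantial level in THP-1 alone. It reached 29.4 RPKM there (28.6 to 30.2), on 5611 fragment equivalents. MonoMac-1 stood at 0.0136 RPKM (0.00494 to 0.0299; 5.88 fragment equivalents), HL60 at 0.0037 (1 fragment equivalent), and KG1a was listed at 0, where 3 fragment equivalents would have given 0.00896 RPKM. TIMP3 lies inside SYN3, and the SYN3 entry was likewise highest in THP-1, at 0.366 RPKM against 0 to 0.0104 elsewhere; reads of overlapping genes may be shared by the authors' counting. TIMP4, the remaining inhibitor of the family, was listed at 0 in HL60, KG1a and THP-1 and stood at 0.0894 RPKM in MonoMac-1.

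Of the gelatinases, the MMPs named for their cleavage of denatured collagen, MMP2 was present in the monocytic lines and MMP9 stayed under 1 RPKM in all 4. MMP2 (chromosome 16, 55513081 to 55540586) stood at 12.8 RPKM in MonoMac-1 (12.4 to 13.2), 4.67 in THP-1 (4.31 to 5.05), 0.824 in HL60 (0.700 to 0.964) and 0.00426 in KG1a, the last on 1 fragment equivalent. The intervals did not overlap, and MonoMac-1 stood at 2.75 times THP-1 and 15.6 times HL60. MMP9 (chromosome 20, 44637547 to 44645200), the gelatinase stored in the granules of mature neutrophils, stood at 0.242 RPKM in MonoMac-1 (0.177 to 0.325), 0.217 in HL60 (0.140 to 0.320), 0.207 in THP-1 (0.120 to 0.333) and 0.112 in KG1a (0.0641 to 0.182). These 4 values lay within 2.16 times of each other and rested on 15.99 to 44.5 fragment equivalents; all 4 intervals overlapped.

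Set side by side per gene length, the inhibitors exceeded the proteinases in every line. The 4 TIMP genes summed to 144 RPKM in THP-1, 128 in KG1a, 88.9 in MonoMac-1 and 49.96 in HL60. TIMP1 made up nearly all of the KG1a sum (99.99%), 85.8% of the HL60 sum and 58.4% of the THP-1 sum, whereas TIMP2 led in MonoMac-1 with 53.2%. The 23 MMP genes, MMP2 and MMP9 included, summed to 64.4 RPKM in MonoMac-1, 58.3 in THP-1, 7.34 in HL60 and 5.63 in KG1a. The ratio of summed TIMP to summed MMP transcripts was therefore 1.38 in MonoMac-1, 2.46 in THP-1, 6.81 in HL60 and 22.7 in KG1a. These are ratios of transcripts, and neither protein nor activity was measured.

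**Figure D2:**
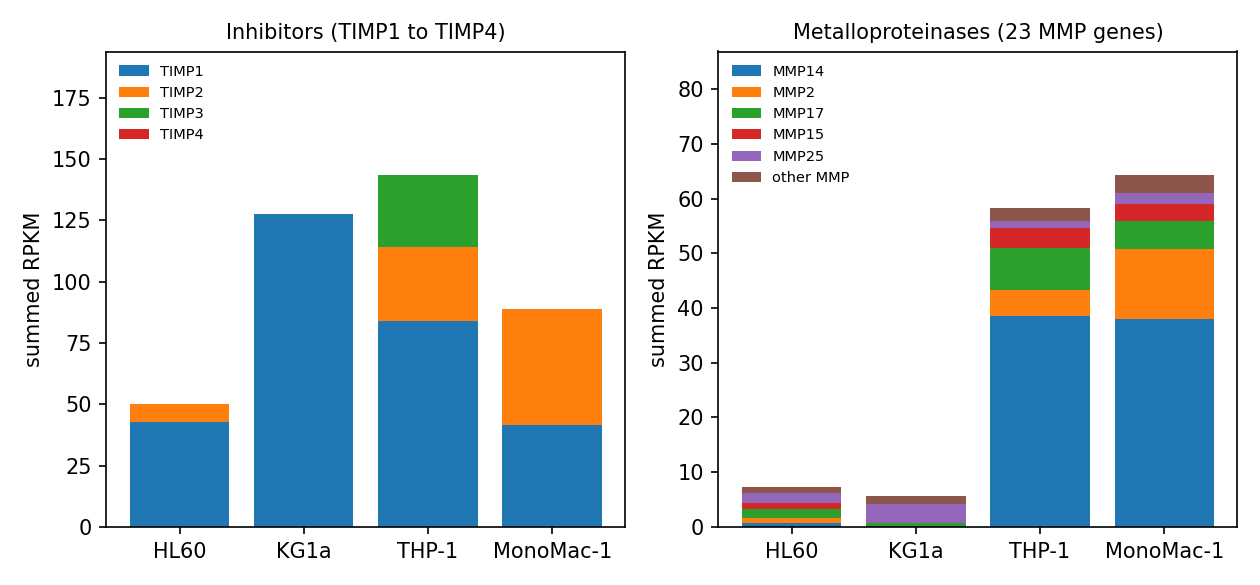
Summed RPKM of the TIMP genes (left) and of 23 MMP genes (right) in each line, stacked by gene; the axes differ in scale. TIMP1 fills the KG1a bar, TIMP2 and TIMP3 are added in THP-1, and MMP14 with MMP2 makes up most of the MMP bars of THP-1 (58.3 in all) and MonoMac-1 (64.4).

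The proteinase that led those sums was MMP14, the membrane-bound enzyme that activates the MMP2 precursor in a complex with TIMP2. Its level was 38.6 RPKM in THP-1 and nearly the same, 38.0, in MonoMac-1, while HL60 stood at 0.751 and KG1a at 0.245. All 3 parts of that complex, MMP14, MMP2 and TIMP2, were thus higher in THP-1 and MonoMac-1 than in HL60, and KG1a was lowest for each. In HL60 and KG1a the leading MMP was instead MMP25, a membrane-anchored enzyme of leukocytes, at 1.92 and 3.33 RPKM. RECK, a membrane-anchored inhibitor of MMPs, was instead ordered with KG1a highest at 23.9 RPKM, followed by THP-1 (7.91), MonoMac-1 (4.0) and HL60 (3.05).

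CHI3L1 reached the highest level of any member, in THP-1, and had the widest difference between lines on the log2(RPKM + 1) scale; TIMP1 stood above it in the other 3 lines. CHI3L1 (chromosome 1, 203148059 to 203155922), also known as YKL-40, is a secreted chitinase-like glycoprotein without chitinase activity that macrophages and neutrophils release. It reached 1035 RPKM in THP-1 (1027 to 1043), where it ranked 40 among all genes. The other lines stood at 16.6 RPKM (MonoMac-1; 15.97 to 17.3), 7.0 (HL60; 6.47 to 7.57) and 0.966 (KG1a; 0.792 to 1.17). The THP-1 level exceeded MonoMac-1 by 62.3 times, HL60 by 148 times and KG1a by 1072 times. The difference of 9.04 between the highest and lowest line on the log2(RPKM + 1) scale was larger than that of 99.9% of measured genes, whose median was 1.18. As plain ratios of highest to lowest line, TIMP3, TIMP2 and MMP2 varied more, over lowest values that rest on at most 3 fragment equivalents.

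The chitinase relatives of CHI3L1 differed from it in level. The active chitinase CHIT1, its neighbour on chromosome 1, reached 0.0886 RPKM (THP-1) and 0.0565 (MonoMac-1) and was listed at 0 in HL60 and KG1a, CHI3L2 stood at 0.113 RPKM in THP-1, 0.0153 in MonoMac-1, 0.00707 in KG1a and 0 in HL60, and CHIA was listed at 0 throughout. CHIT1 and CHI3L2 were thus, like CHI3L1, highest in THP-1 and next in MonoMac-1, but far under 1 RPKM. CHID1, the most abundant other gene of the family, was nearly level at 16.6 to 26.7 RPKM. Of the chitinase list 2 of 5 genes were measured, and neither was 4-fold apart between the pairs of lines.

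TGFBI had the same order of lines at a lower level. TGFBI (chromosome 5, 135364584 to 135399507) encodes a secreted adhesion protein, induced by TGF-beta in many cells, that binds collagens and integrins. It stood at 96.8 RPKM in THP-1 (94.9 to 98.8), 1.33 in MonoMac-1 (1.18 to 1.49) and 0.124 in HL60 (0.0721 to 0.198), and was listed at 0 in KG1a, where 3 fragment equivalents would have given 0.0175 RPKM. THP-1 was the one high line, 72.6 times above MonoMac-1. Expressed as shares of the THP-1 level, the MonoMac-1 values were 1.38% for TGFBI, 1.61% for CHI3L1 and 0.0463% for TIMP3.

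Of the 2 members highest in KG1a, SPARC had the wider margin over the next line, though it did not meet the 8-fold rule. SPARC (chromosome 5, 151041009 to 151066517), or osteonectin, is a collagen-binding matricellular glycoprotein found in bone, stroma and platelets. It stood at 23.3 RPKM in KG1a (22.7 to 24.0), 4.32 in MonoMac-1 (4.06 to 4.58), 0.615 in HL60 (0.497 to 0.751) and 0.0812 in THP-1 (0.0369 to 0.155). KG1a was 5.41 times above MonoMac-1 and the 4 intervals did not overlap. The HL60 value was 2.63% of that in KG1a, a share that recurred among genes abundant in KG1a. Of 65 genes with at least 20 RPKM in KG1a and under 1% of that in both THP-1 and MonoMac-1, 55 stood in HL60 under 5% of KG1a, with a median of 2.66% (quartiles 2.51% and 3.03%). Taking that share off the HL60 values left SPARC at 0 there, so its presence in HL60 cannot be told apart from a share of KG1a; TIMP1 kept 39.5 RPKM and the other 8 members changed little. Markers of megakaryocytes and platelets, which also make SPARC, summed to 101 RPKM in KG1a and 1.84 to 7.92 in the other lines. That sum came mainly from ITGA2B (90.3 RPKM) and GP9 (9.45), PF4 and PPBP were listed at 0 in all 4 lines, and their part in the SPARC value was not tested.

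**Figure D3:**
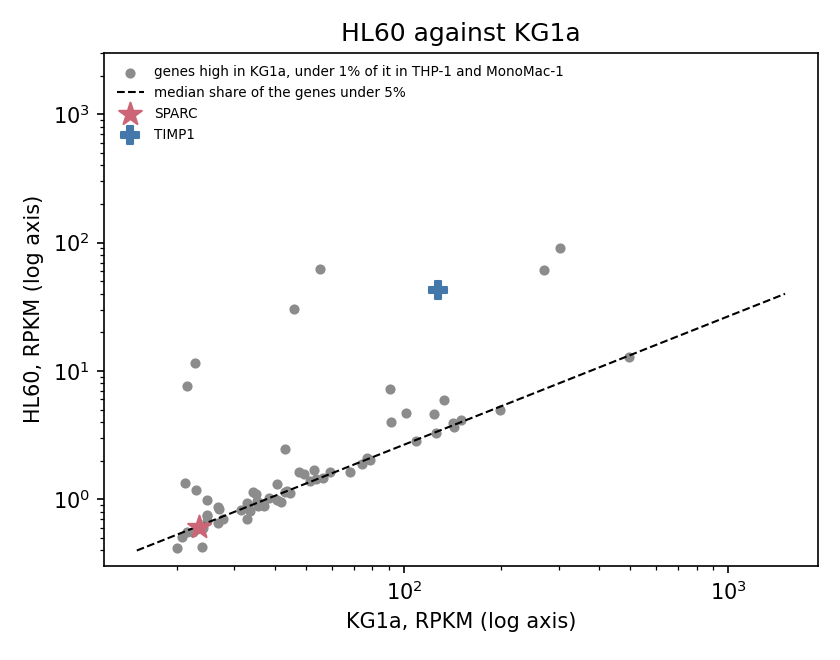
HL60 against KG1a level in RPKM (both axes logarithmic) for the 65 genes that were abundant in KG1a and under 1% of it in THP-1 and MonoMac-1 (grey), with SPARC (star) and TIMP1 (cross). SPARC lies on the dashed line of the median share, 2.66%, whereas TIMP1 lies far above it.

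VCAN and FN1 encode large matrix proteins and were scarce. VCAN (chromosome 5, 82767493 to 82878122), the chondroitin sulfate proteoglycan versican that blood monocytes express, stood at 4.56 RPKM in MonoMac-1 (4.43 to 4.70) and 1.37 in THP-1 (1.26 to 1.48). It was near 0 in HL60 (0.0237; 14.5 fragment equivalents) and KG1a (0.00763; 5.79 fragment equivalents). Both monocytic lines were thus above both other lines, and MonoMac-1 stood at 3.34 times THP-1. FN1 (chromosome 2, 216225179 to 216300791), which encodes fibronectin, the ligand of integrin alpha 5 beta 1, stood at 0.330 RPKM in HL60 (0.278 to 0.389), 0.329 in THP-1 (0.268 to 0.400), 0.188 in MonoMac-1 (0.157 to 0.223) and 0.0344 in KG1a (0.0205 to 0.0540). HL60 and THP-1 were level within counting error and KG1a was lowest.

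**Figure D4:**
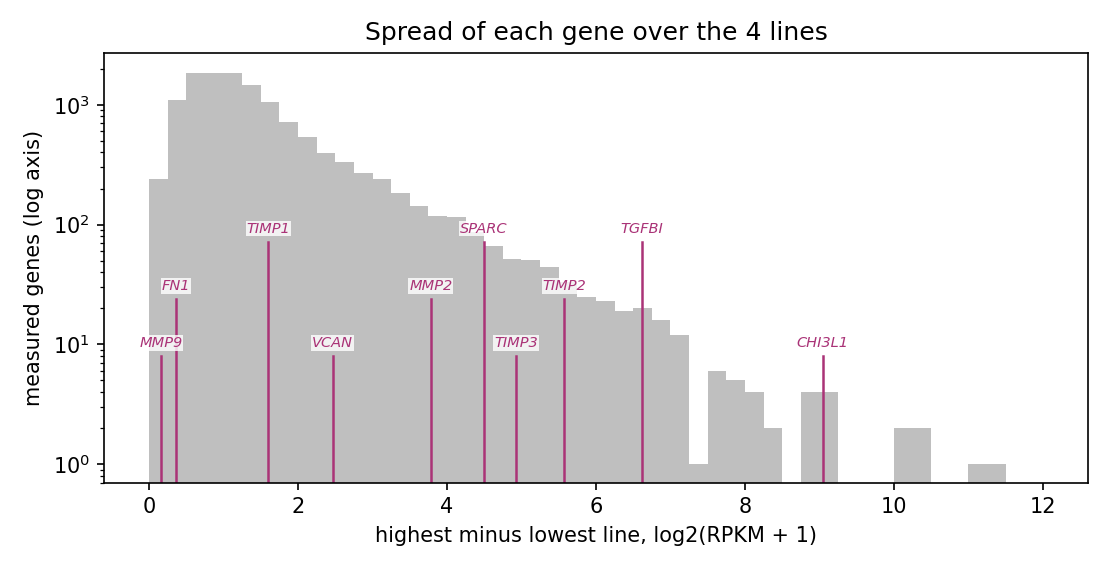
Histogram of the difference between the highest and the lowest line, on the log2(RPKM + 1) scale, for 12976 measured genes (logarithmic count axis), with the members marked. CHI3L1 lies at 9.04 and TGFBI at 6.61, TIMP1 near the bulk at 1.60, and the unmeasured MMP9 and FN1 at the left edge.

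Between THP-1 with MonoMac-1 and HL60 with KG1a 6 members differed in direction and 0 by the 4-fold rule. By any margin 6 members were higher in both monocytic lines than in both other lines (CHI3L1, TGFBI, TIMP2, TIMP3, MMP2 and VCAN; 22.1% of measured genes) and 0 were lower (19.6%); for TIMP3 the margin lay between 0.0136 and 0.0037 RPKM, where the counting intervals overlapped. TGFBI, TIMP3, MMP2 and VCAN reached 1 RPKM only in THP-1, MonoMac-1 or both. They were thus measured through those lines and could not be called lower. The members were also selected on these values, so no conclusion is drawn from the counts beside those shares. By the 4-fold rule on RPKM + 1, 0 members were higher (1.39% of measured genes) and 0 lower (0.331%). TIMP2 came closest, with a lower value in the monocytic lines that was 3.86 times the higher value in the others, followed by MMP2 at 3.11 times. Without the pseudocount of 1, which understates changes of scarce transcripts, 4 members were at least 4-fold higher (TGFBI, TIMP2, MMP2 and VCAN), where 4.35% of measured genes were, and 0 lower (2.21%). Leaving out a line loosens the rule. Without HL60 3 members were higher (CHI3L1, TIMP2 and MMP2; 4.32% of measured genes) and 1 lower (SPARC; 3.75%). Without THP-1 3 were higher (TIMP2, MMP2 and VCAN; 3.20%), without MonoMac-1 3 (CHI3L1, TGFBI and TIMP3; 3.20%) and without KG1a 0 (2.44%); in these cases 0 were lower (0.755%, 0.801% and 0.894%).

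Comparisons of single lines used the same 4-fold rule on RPKM + 1, in either direction, and share libraries with each other. THP-1 and MonoMac-1, both monocytic, were apart in 4 of 10 members (4.29% of measured genes): CHI3L1, TGFBI and TIMP3 were higher in THP-1 and SPARC in MonoMac-1. HL60 and KG1a were apart in 3 (10.3%), with CHI3L1 and TIMP2 higher in HL60 and SPARC in KG1a. HL60 was lower than THP-1 in CHI3L1, TGFBI and TIMP3 (3 members; 7.19%) and lower than MonoMac-1 in TIMP2, MMP2 and VCAN (3 members; 6.77%). KG1a and THP-1 were apart in 6 members (11.9%), of which SPARC alone was higher in KG1a. KG1a and MonoMac-1 were apart in 5 (12.3%): CHI3L1, TIMP2, MMP2 and VCAN were higher in MonoMac-1 and SPARC in KG1a.

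Monocyte markers and most granulocyte precursor markers moved with several of these members. The 9 monocyte and macrophage markers, VCAN among them, summed to 5278 RPKM in MonoMac-1, 968 in THP-1, 25.9 in HL60 and 2.13 in KG1a. By any margin all 9 stood higher in the monocytic pair than in HL60 and KG1a (22.1% of measured genes). By 4-fold 4 of them did (1.39%). For CD163 the margin lay between 0.0630 RPKM (THP-1) and 0.0593 (HL60). CD14, IRF8, CSF1R, CD163, MPEG1 and VCAN were measured only through the monocytic lines. LYZ made up most of the MonoMac-1 sum; without LYZ and VCAN the other 7 summed to 0.997 RPKM in KG1a, 13.8 in HL60, 436 in MonoMac-1 and 457 in THP-1. Of the 5 granulocyte precursor markers 4 were likewise higher in both monocytic lines by any margin and 3 by 4-fold: ELANE (THP-1 1042 RPKM, MonoMac-1 1313, HL60 76.6), AZU1 (THP-1 2033, MonoMac-1 1536, HL60 175) and CTSG (THP-1 1789, MonoMac-1 2410, HL60 120), while MPO was restricted to HL60. CSF1R, the receptor of a macrophage growth factor, was also restricted to THP-1 (31.1 RPKM against 2.31 in MonoMac-1). By the same rule LYZ was restricted to MonoMac-1. Of the 9 monocyte markers 7 were highest in MonoMac-1 (24.9% of measured genes) and 2 in THP-1 (21.0%). The part of the monocytic or granulocytic state in the members' values was not tested, and it cannot be told apart from the MLL-AF9 fusion or from single lines.

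Genes with profiles nearest to the 4 members with the highest level in any line were sought by the Euclidean distance of log2(RPKM + 1) over the 4 lines, among 12975 other measured genes. Nearest to CHI3L1 were CITED4 (distance 2.36; 341 RPKM in THP-1, 48.5 in MonoMac-1, 6.18 in HL60, 0.0698 in KG1a), CA2 (2.39; 774 RPKM in THP-1) and COL9A2 (2.73). The nearest gene was thus farther from CHI3L1 than from the other 3 members. TGFBI was nearest to PPIC (0.93; 64.9 RPKM in THP-1), TREM2 (1.09; 45.4) and C13orf18 (1.31; 55.95). TIMP2 had the closest match, APBB1IP (0.44; 50.8 RPKM in MonoMac-1, 23.5 in THP-1, 6.67 in HL60, 0.183 in KG1a), then STAC3 (0.80) and LRG1 (0.82). TIMP1 was nearest to ESYT2 (0.69), HP1BP3 (0.77) and ASF1B (0.77). With 4 lines such likeness is a description of these libraries.

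Other proteinases, regulators and structural genes of the matrix are given by the same rules, and their counts are to be read beside the 22.1% of all measured genes that were higher in both monocytic lines by any margin, the 19.6% that were lower and the 1.39% that were 4-fold higher. The lists are short, so that counts of 1 or 2 genes at 4-fold carry little weight. A gene that reached 1 RPKM only in THP-1 or MonoMac-1 was measured through those lines and could not be called lower. Of 21 other MMP genes 6 were measured, 1 (MMP14) was 4-fold higher in both monocytic lines and 0 lower, and 5 were higher by any margin. The median log2 difference was 1.13, beside 0.02 over all measured genes. MMP14, MMP19 and MMP24 were measured only through the monocytic lines, which bears on that median as well. Of 25 ADAM, ADAMTS and astacin genes 12 were measured, 4 were higher and 0 lower by any margin, and 1 was 4-fold higher, the procollagen N-proteinase ADAMTS2 (9.92 RPKM in THP-1, 6.48 in MonoMac-1 and at most 0.0174 in the others). The leading genes of that list were ADAM15 in HL60 (68.9 RPKM) and THP-1 (60.2), ADAM10 in KG1a (46.5) and ADAMTS1, a protease that cleaves versican, in MonoMac-1 (68.0). Of 15 regulators of MMPs and plasminogen 8 were measured, 4 were higher and 0 lower by any margin, and 2 were 4-fold higher. They were SERPINB2, an inhibitor of plasminogen activators (57.9 and 47.3 RPKM against 1.42 in HL60), and SERPINF1, which encodes PEDF (90.4 and 37.7 against 1.26 and 0.607). BSG, or EMMPRIN, led that list in every line, at 137 to 300 RPKM.

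Among structural genes of the matrix, the 7 measured fibrillar and associated collagens stood on the side of the monocytic lines. Of 23 basement membrane genes 10 were measured, 6 were higher and 1 lower by any margin, and 1 was 4-fold higher: NID1, which links laminin to collagen IV, at 78.3 RPKM (THP-1) and 22.0 (MonoMac-1), beside at most 0.0138 in the others. LAMC1, a laminin chain, led the list in HL60 (8.94 RPKM), KG1a (19.9) and MonoMac-1 (28.5). Of 22 fibrillar and associated collagens 7 were measured, all 7 were higher in the monocytic lines by any margin, and 2 were 4-fold higher, COL9A2 (252 and 14.8 RPKM against 1.72 and 0.0319) and COL8A2 (12.5 and 4.90). COL27A1, COL6A1, COL6A2, COL8A2 and COL9A3 stayed under 1 RPKM in HL60 and KG1a, so they were measured only through the monocytic lines. Among the unmeasured genes COL11A2 (0.963 RPKM) and COL3A1 (0.204) were highest in KG1a, whereas COL1A1 was higher in the monocytic lines. Of the 7, COL24A1 and COL27A1 stood higher in MonoMac-1 and the other 5 in THP-1. Over the measured genes alone, the median difference of the fibrillar and associated collagen list was 2.35, and that of the basement membrane list 1.08.

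Among proteoglycans SRGN, the serglycin core protein of secretory granules, was the leading gene of every line, from 47.9 RPKM in KG1a to 13925 in MonoMac-1. Of that list 12 of 26 genes were measured, 5 were higher and 2 lower by any margin, and 1 was 4-fold higher, the glypican GPC3 (THP-1 28.0 RPKM, MonoMac-1 3.04). Of 39 other matrix glycoproteins 23 were measured and 1 was 4-fold higher, ECM1 (42.0 and 17.8 RPKM against 0.836 in HL60 and 2.57 in KG1a), while 12 were higher and 3 lower by any margin. LGALS1, or galectin-1, led that list in each line, at 233 to 1216 RPKM.

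Receptors that bind matrix proteins showed no common direction. Of 20 listed 14 were measured, 4 were higher and 5 lower by any margin, 1 was 4-fold higher in both monocytic lines (CD36, a receptor of thrombospondin) and 1 lower (ITGA6, the laminin receptor chain, at 11.2 RPKM in HL60 and 7.22 in KG1a against 0.655 and 0.220), and the median difference was 0.10. CD44, the hyaluronan receptor, led in KG1a at 255 RPKM and was lowest in the monocytic lines (20.2 and 15.3), with HL60 at 55.3. ITGA5, the fibronectin receptor chain, was present in all lines (24.1 to 63.3 RPKM), while FN1 reached 1 RPKM in none.

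**Figure D5:**
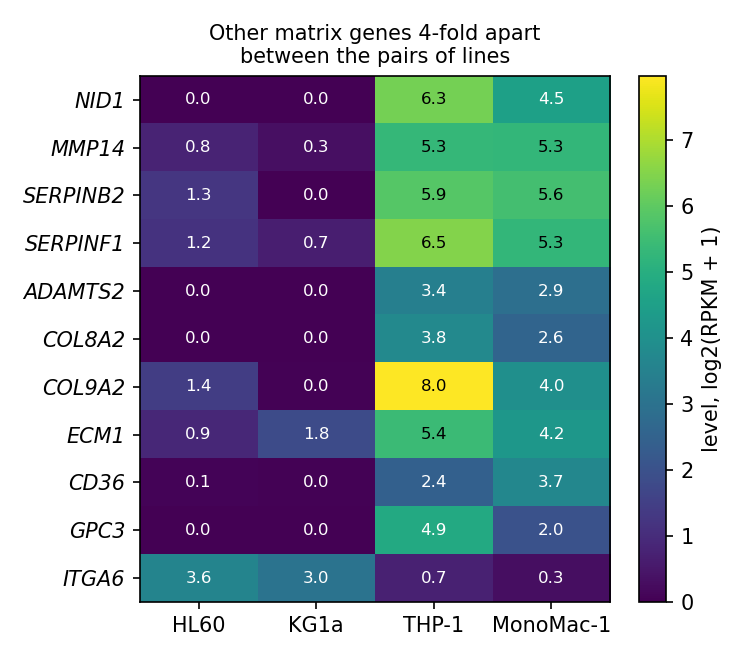
Levels as log2(RPKM + 1) of the 11 listed matrix genes, other than the members, that were at least 4-fold apart between the pair THP-1 and MonoMac-1 and the pair HL60 and KG1a (colour scale from 0). All but ITGA6 are higher in the monocytic lines, and ITGA6 is higher in the other pair.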

How the data were processed

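RNA of 4 leukemia lines was sequenced, 1 library per line; lines were taken from the cell line label. TRIzol extraction preceded Illumina library preparation, per the labels' protocols; CASAVA 1.8.2 and hg19 come from the submitters' processing notes. For aligner, annotation and strand handling the sources used here give nothing. The authors deposited, for each of 21893 entries, an RPKM and a coverage signal without a stated unit. From its values the signal was read as summed bases on the gene (low values commonly 200, read as fragments of 2 reads of 100 bases), and RPKM equalled that sum over gene length and a library total, the latter inferred from genes whose length matched their span. Count models were not used. For the 28 repeated entries the one with the highest mean was used. Intervals are exact Poisson limits (95%) on bases divided by 200, and a floor is 3 such fragments. In MonoMac-1 9.99% of low values were multiples of 100 (41.5% to 46.7% elsewhere), so its fragment equivalents are rougher. Fold rules used RPKM + 1 (pseudocount 1, thresholds 4 and 8) and were checked on simulated data with planted differences. The planted differences were well past both thresholds and lay in abundant genes, so the check does not cover scarce transcripts. No test was run. The members, 11 matrix lists (235 genes, 1 not matched), 7 marker lists and rules were chosen with earlier results of these data known. Named genes were all members, the 3 nearest profiles of the 4 with the highest levels, listed genes meeting the 4-fold rule, leading genes per line, and relatives, partners and identity markers. Some further listed genes were named outside these rules, such as LEPRE1, PCOLCE2, LOX, LOXL4, LRRC32, COL11A2, COL27A1 and ITGA5. Alternatives covered scaling, pseudocount, fold, filter, repeated entries, lines left out and removal of the KG1a share from HL60. Any margin, and restriction with lines left out, were added after the data were seen. Python 3.11.15, pandas 2.3.3 and scipy 1.17.1 were used.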

Additional observations from a re-analysis of the deposited data

How the results depend on the processing

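The number of members at least 4-fold higher in THP-1 and MonoMac-1, 0 as reported, was 5 at 2-fold, 4 with a pseudocount of 0.1 or with none, 1 with median-of-ratios scaling (TIMP2), 6 by any margin, and 0 to 3 with single lines left out; the number lower was 0 to 1 with lines left out. Over the 6 pairs of lines, 24 calls of members became 37 at 2-fold and 15 at 8-fold. The 3 members restricted to a line became 0 (without THP-1) to 4 (without MonoMac-1) with lines left out. Median-of-ratios scaling moved 5 of the 40 member levels beyond their counting intervals, quantile normalization 21, and removal of the KG1a share 2 (TIMP1 and SPARC in HL60). No paired analysis was possible because each line has 1 library. Without a filter on low values 0.828% of genes were 4-fold higher. Depth limits TIMP2, MMP2, VCAN and TGFBI in KG1a and TIMP3 outside THP-1, which rest on fewer than 6 fragment equivalents.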

Other observations

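Of 18 genes with an entry for enzymes that modify and crosslink collagen 12 reached 1 RPKM in some line. Of these 0 were 4-fold higher or lower between the pairs, 6 were higher and 1 lower by any margin, beside 22.1% and 19.6% of measured genes. LOX and LOXL4 stayed under 1 RPKM in all 4 lines, and PCOLCE2 was listed at 0 in KG1a and stood at 11.9 RPKM in MonoMac-1. P4HB, the beta subunit of collagen prolyl hydroxylase and a protein disulfide isomerase, led in every line, from 228 RPKM in KG1a to 1300 in HL60. LEPRE1, a collagen prolyl 3-hydroxylase, was highest in THP-1 at 161 RPKM against 20.9 to 39.0 elsewhere, the line in which COL9A2 was also highest.

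Of 20 genes of TGF-beta ligands, receptors and SMADs 17 were measured. Between the pairs 0 were 4-fold higher or lower, beside 1.39% and 0.331% of measured genes. By any margin 3 were higher and 3 lower (17.6% each), near the 22.1% and 19.6% of measured genes. TGFB1 was lowest in THP-1 (27.5 RPKM) and highest in KG1a (154), the reverse of TGFBI, which was 96.8 RPKM in THP-1 and listed at 0 in KG1a. LRRC32, which holds latent TGF-beta on the cell surface, was restricted to KG1a (31.4 RPKM). Its HL60 value of 0.830 RPKM was 2.65% of that in KG1a. LRRC32 is 1 of the 55 genes that gave the median KG1a share of 2.66%, so its nearness to that share is no separate observation.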
